A study of Mus musculus with 20 samples.

Results

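Bone marrow-derived macrophages (BMDMs) that received the protein fraction of airway fluid from wild-type mice (RNY1+/+ ProteinFx, 4 libraries) were compared with BMDMs that received PBS (4 libraries). Of the 78409 gene entries listed, 10837 had a mean of at least 3 CPM (counts scaled to a common library total) over these 8 libraries, and all of them are described here. Of these, 10834 also passed edgeR's filterByExpr and were tested. The series holds 20 libraries in 5 groups of 4, and the wild-type extracellular vesicle fraction (RNY1+/+ EVFx, 4 libraries) is used only where the ProteinFx values are set beside it. In all 3 groups the macrophages themselves came from wild-type female C57BL/6J mice and were used on day 7 of culture, so the genotype names the mice that gave the fluid. The fluid was bronchoalveolar lavage fluid (BALF) of mice with ovalbumin-induced airway inflammation, and the fractions were pools of size exclusion chromatography fractions kept at 4°C over 5 days of storage. ProteinFx was given at 0.75 µg of protein per µL, whereas EVFx was dosed by particle number, so these doses are on different scales. The length of the treatment is not given in the sources used here. Nothing in the labels tells if the replicates of a group are separate mice, fluid pools or culture wells, so p-values measure only the spread between these libraries, which may be technical.

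Macrophages read their surroundings through pattern recognition receptors, cytokine receptors and receptors for dying cells, and change their transcription within hours. Sensors of foreign or misplaced nucleic acids lead to type I interferon, whose receptor acts through STAT2, IRF9 and their partners on promoters that carry the interferon-stimulated response element (ISRE). Bacterial products, interleukin-1 and tumour necrosis factor act mainly through NF-kB, and interleukin-4 and interleukin-13, the cytokines of allergic airways, act through STAT6.

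One PBS library stood apart before any comparison between groups. PBS replicate 3 correlated with the other PBS libraries at r = 0.942 to 0.969, against 0.983 to 0.993 among the other 3 and 0.982 to 0.989 within ProteinFx (Pearson's r across genes, log2 of CPM plus 1, with CPM over total counts). With the ProteinFx libraries it correlated at 0.891 to 0.908, against 0.835 to 0.895 for the other PBS libraries, so it lay nearer to ProteinFx. Total counts ran from 4372150 to 6473209 with PBS and from 3945372 to 5763532 with ProteinFx, and the biological coefficient of variation was 20.8% and 10.6%. Mitochondrial genes took 6.49% ± 0.817 of the counts with PBS and 5.13% ± 0.268 with ProteinFx (SD, n = 4 each; exact two-sided permutation p = 0.0286, the smallest that 4 against 4 allows). The log2 fold changes of ProteinFx over PBS also followed the GC content of the genes, with Spearman's rho of -0.46 across 10482 genes, and the deviation of PBS replicate 3 from the other PBS libraries did so with rho of -0.64. Genes are not independent replicates, and the part of GC content in the results was not tested. Named calls and counts of all genes that end or move by over 1.5 times after removal of length and GC trends are given beside them, and the lists that moved are gathered after the lists.

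Some of the genes that rose carry the motifs of these pathways just upstream of their start, and 6 of these windows are shown as examples, from interferon genes, chemokines and Acod1, whose values follow. Each is the 250 bases before the annotated start in RefSeq on GRCm38.p6, given 5′ to 3′ on the strand of the gene. Capitals mark the ISRE core (GAAANNGAAA, searched on either strand, so that a match to the opposite strand starts with TTTC) in Ifit1, Isg15 and Gbp2, the NF-kB motif (GGGNNNNNCC on either strand) in Cxcl2 and Acod1, and both in Cxcl10. Adjacent matches overlap in Isg15, Cxcl10 and Cxcl2. NF-kB matches in the Ifit1 window, which start at -160 and -159 from the start site, are left in lower case.
Ifit1, chr19:34640639-34640888, plus strand: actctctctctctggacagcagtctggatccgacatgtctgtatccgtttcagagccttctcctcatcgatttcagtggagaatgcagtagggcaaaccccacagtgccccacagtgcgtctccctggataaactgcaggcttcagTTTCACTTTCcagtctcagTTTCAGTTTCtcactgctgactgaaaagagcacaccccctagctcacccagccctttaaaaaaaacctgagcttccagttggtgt
Isg15, chr4:156200819-156201068, minus strand: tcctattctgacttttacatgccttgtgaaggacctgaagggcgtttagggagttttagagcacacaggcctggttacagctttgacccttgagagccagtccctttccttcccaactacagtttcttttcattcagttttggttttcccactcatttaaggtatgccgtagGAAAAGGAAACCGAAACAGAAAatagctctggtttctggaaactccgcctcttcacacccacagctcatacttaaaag
Gbp2, chr3:142620413-142620662, plus strand: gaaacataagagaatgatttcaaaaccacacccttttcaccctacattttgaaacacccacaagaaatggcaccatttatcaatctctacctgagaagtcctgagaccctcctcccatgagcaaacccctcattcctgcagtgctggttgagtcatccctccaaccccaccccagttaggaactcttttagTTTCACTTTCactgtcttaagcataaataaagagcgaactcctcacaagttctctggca
Cxcl10, chr5:92348890-92349139, minus strand: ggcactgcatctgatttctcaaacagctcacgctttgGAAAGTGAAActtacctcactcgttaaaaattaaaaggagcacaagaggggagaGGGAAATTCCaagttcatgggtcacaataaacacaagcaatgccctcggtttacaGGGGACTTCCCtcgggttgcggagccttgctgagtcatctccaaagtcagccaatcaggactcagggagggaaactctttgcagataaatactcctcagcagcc
Cxcl2, chr5:90903649-90903898, plus strand: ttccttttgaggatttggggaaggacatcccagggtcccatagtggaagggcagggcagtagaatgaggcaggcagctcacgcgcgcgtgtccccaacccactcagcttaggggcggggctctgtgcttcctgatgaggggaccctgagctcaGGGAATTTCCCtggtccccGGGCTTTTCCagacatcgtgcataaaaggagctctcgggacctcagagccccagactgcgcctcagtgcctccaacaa
Acod1, chr14:103046762-103047011, plus strand: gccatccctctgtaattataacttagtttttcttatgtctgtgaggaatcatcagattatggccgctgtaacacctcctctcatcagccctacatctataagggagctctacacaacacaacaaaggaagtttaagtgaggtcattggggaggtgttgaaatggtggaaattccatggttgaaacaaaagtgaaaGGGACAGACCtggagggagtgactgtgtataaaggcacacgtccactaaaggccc

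Windows of 300 bases, 250 before and 50 after the start, were counted for 27025 symbols. The ISRE core was found in 3.49% of all windows, in 3.45% of those of tested genes (265 of 7680 matched), in 13% of those of genes higher with ProteinFx (87 of 670 matched) and in 2.8% of those of genes lower with ProteinFx (26 of 929 matched). It was found in 44.7% of the windows of interferon effectors (21 of 47) and in 90.0% of those of interferon GTPases (9 of 10). The NF-kB motif has few fixed letters and was found in 50.4% of all windows, in 67.7% of those of tested genes, in 65.2% of those of higher genes and in 70.7% of those of lower genes. It was found in 81.5% of the windows of NF-kB factors and feedback genes (22 of 27). This share of the motif with few fixed letters did not set that list apart. The motif was found in 92.6% of the windows of cell cycle genes (25 of 27) and 88.2% of those of cholesterol genes (15 of 17). It was found in 9 of 9 windows of type 2 genes, but in only 5 of 10 windows of chemokines. A stricter NF-kB motif that ends in TCC (GGGNNNNTCC) was found in 23.6% of the windows of tested genes. It was found in 66.7% of those of NF-kB factors and feedback genes (18 of 27), the highest share of any list. Type 2 genes had the next highest share, 44.4%. These are matches of letters and not measured sites.

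ProteinFx left many genes at another level than PBS. Differentially expressed genes (DEGs) were those with an adjusted p under 0.05 (edgeR's quasi-likelihood test, Benjamini-Hochberg adjustment over all 10834 genes) and an absolute log2 fold change above 1. CPM is taken over the total counts of each library and is given for replicates 1 to 4 in this order. Log2 fold changes come from counts scaled by TMM, the trimmed mean of M-values, and are given ± standard error (SE). Group means in CPM are given ± SD (n = 4). By these limits 971 genes (8.96% of those tested) were higher with ProteinFx and 1342 (12.4%) were lower. The groups did not overlap in 939 of the higher and 1207 of the lower genes. This was counted among DEGs alone and not over all genes tested. The call itself favours separate groups, so these counts are no independent support. The rises were larger than the falls, since 371 genes rose and 165 fell by more than 2 on the log2 scale, and 101 rose and 12 fell by more than 4. The median log2 fold change of all genes tested was -0.03. Scaling by total counts in place of TMM moved it to -0.20 and gave 774 higher and 1847 lower DEGs, which changed the share of higher genes among DEGs from 42.0% to 29.5%. Without PBS replicate 3 there were 1201 higher and 1653 lower DEGs, and 145 of the 146 DEGs named by the rule for naming genes kept their call. Removal of length and GC trends left 852 higher and 882 lower DEGs among 10482 genes. Only 1425 of the 2313 DEGs of the main fit (61.6%) were still called. The 2313 may include genes outside these 10482.

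**Figure D1:**
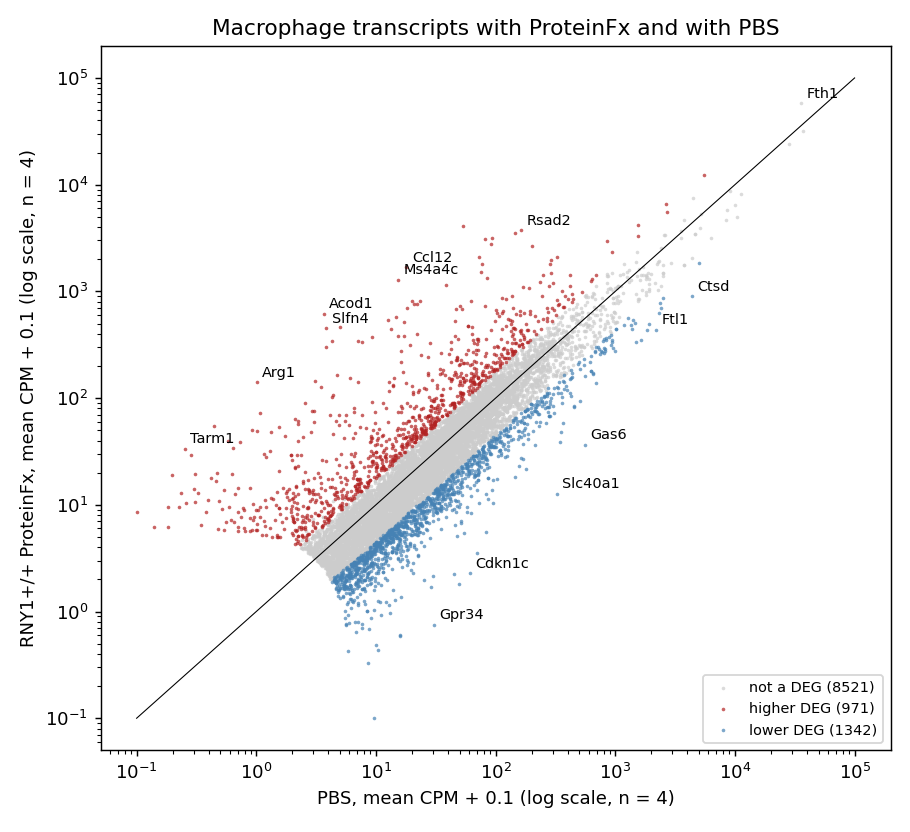
Mean CPM plus 0.1 of each tested gene with PBS (x axis, log scale) and with ProteinFx (y axis, log scale), 4 libraries each, with the 971 higher and 1342 lower DEGs coloured and a diagonal for equal values. Acod1 and Arg1 lie far above the diagonal and Gpr34 and Slc40a1 far below it.

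The 10 genes that led the rises came from several pathways. Leading genes, here and in each list, were taken only from DEGs whose groups did not overlap. Their lack of overlap is therefore no further support. Acod1, which makes itaconate from an intermediate of the citric acid cycle, was at 2.46, 3.55, 5.72 and 2.49 CPM with PBS and at 543, 556, 495 and 867 CPM with ProteinFx (log2 fold change 7.63, SE 0.30, adjusted p = 3.6e-09). Arg1, arginase 1, which splits arginine into ornithine and urea and marks macrophages exposed to interleukin-4, was at 0.615, 1.39, 0.915 and 0.712 CPM with PBS and 146, 149, 144 and 121 CPM with ProteinFx (log2 fold change 7.35, SE 0.19, adjusted p = 2.3e-10). Both genes were close to silent in the 4 PBS libraries and well expressed in the 4 ProteinFx libraries. Tarm1, a receptor of the leukocyte immunoglobulin-like family, had 3 counts over the PBS libraries and 659 over the ProteinFx libraries, a ratio of 248 (95% interval 84.5 to 1205, counting error only). Fpr1, a receptor for formylated peptides of bacteria and mitochondria, rose to 44.6, 46.9, 34.9 and 93.3 CPM from 0, 0.618, 0.229 and 0.534 CPM, and its relative Fpr2 rose to 42.5, 45, 35.4 and 73.2 CPM from 1.02, 0.463, 0.915 and 1.25 CPM. Edn1, the precursor of the vasoconstrictor endothelin-1, was at 0, 0.154, 0.229 and 0.356 CPM with PBS and 20.5, 31.4, 20.1 and 44.4 CPM with ProteinFx (log2 fold change 7.27, SE 0.49, adjusted p = 3.4e-07). The monocyte attractant Ccl12 rose from 17.9 ± 5.65 CPM to 1683 ± 317 CPM and the CXCR3 ligand Cxcl10 from 4.92 ± 1.52 CPM to 459 ± 113 CPM. Slfn4, a Schlafen family member induced by interferon, rose by 7.04 ± 0.27 on the log2 scale, Ms4a4c, a membrane protein of the Ms4a family, by 6.56 ± 0.19 and H2-M2, a non-classical MHC class I gene, by 6.55 ± 0.37. None of these groups overlapped, which was a condition for the 10 leading genes.

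Of the 10 genes that led the falls, Gpr34, Pcp4l1 and Cdkn1c are on the list of genes of resting macrophages, Slc40a1 on that of iron and antioxidant genes and Gas6 on that of phagocytosis. Gpr34, a receptor for lysophosphatidylserine, was at 31.6, 28.6, 34.3 and 26.2 CPM with PBS and 0.574, 1.01, 0.503 and 0.521 CPM with ProteinFx (log2 fold change -5.34, SE 0.23, adjusted p = 7.5e-09). Slc40a1, ferroportin, which exports iron from cells, was at 305, 281, 366 and 341 CPM with PBS and 12.3, 17.7, 10.3 and 10.1 CPM with ProteinFx (log2 fold change -4.52, SE 0.18, adjusted p = 4e-09). Gas6, which bridges dying cells to the receptors Axl and Mertk, was at 677, 747, 299 and 496 CPM with PBS and 44.9, 39.8, 37.9 and 23.8 CPM with ProteinFx (log2 fold change -3.76, SE 0.29, adjusted p = 1.1e-06). In each case every ProteinFx library was far below every PBS library, and the Gas6 level of PBS replicate 3 was the lowest of its group. Cdkn1c, an inhibitor of cyclin-dependent kinases, Pcp4l1, the sorting receptor Sort1 and Rasgrp3, an exchange factor for Ras and Rap, fell with log2 fold changes of -4.60 ± 0.23, -4.70 ± 0.30, -4.24 ± 0.20 and -4.22 ± 0.18. The actin-binding Lsp1, the microsomal glutathione transferase Mgst3 and Atosa had -3.98 ± 0.27, -3.76 ± 0.26 and -3.68 ± 0.21. No library overlapped between the groups in these 7 genes, as the rule for leading genes required.

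**Figure D2:**
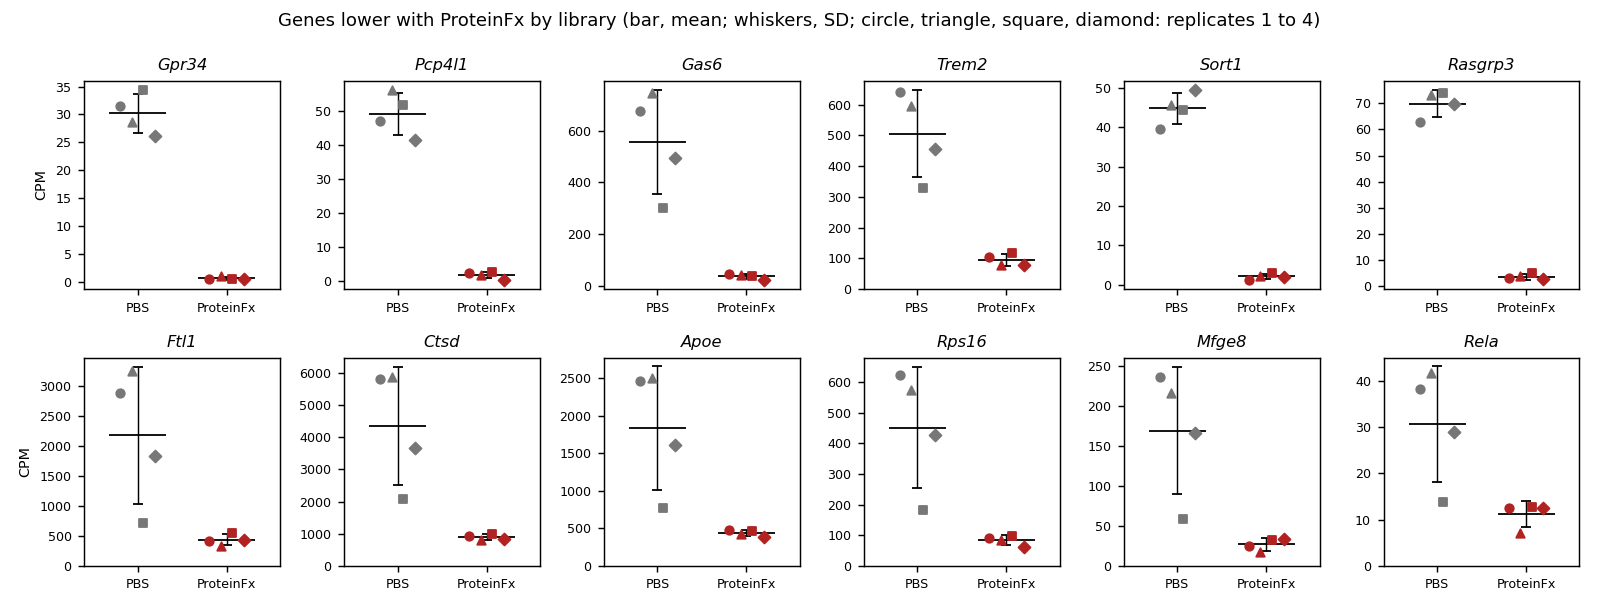
CPM in each library (linear axes, 1 panel per gene) of 12 genes that fell, with PBS and ProteinFx libraries as separate points, a line at each group mean and whiskers of 1 SD (n = 4). Gpr34 was at 26.2 to 34.3 CPM with PBS and at 0.503 to 1.01 CPM with ProteinFx. No gene drawn overlapped between the groups, as the rule for leading genes required.

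Across 24 gene lists the calls were unevenly spread. Rises were called for most tested members of the interferon effector, interferon GTPase, chemokine and MHC class I lists, and falls for most of the cytosolic ribosomal proteins. No list was tested as a set. Each list is described by its number of DEGs, beside 8.96% and 12.4% over all genes, and by its median log2 fold change, beside -0.03. The lists were chosen with earlier results of these data known, so these counts are descriptions. Members close to silent in either group reached the mean of 3 CPM only through the other group, which favours their calls. Tested were 17 of 26 chemokine entries, 17 of 31 for cytokines, 17 of 32 for type 2 activation and 16 of 25 for arginine, itaconate and tryptophan metabolism.

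**Figure D3:**
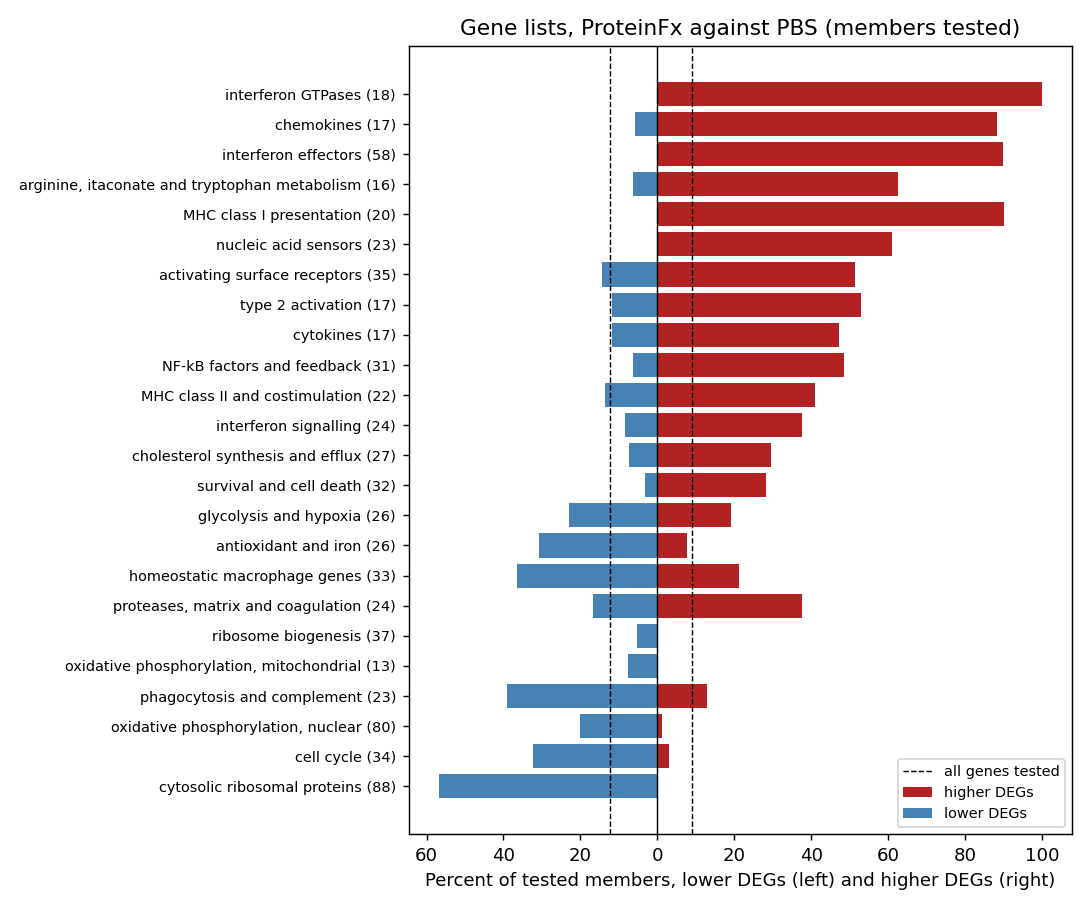
Percent of the tested members of each of 24 gene lists that were DEGs between ProteinFx and PBS, lower DEGs as bars to the left of 0 and higher DEGs as bars to the right, with the shares over all genes tested (12.4% and 8.96%) as dashed lines. The interferon GTPases reach 100% to the right and the cytosolic ribosomal proteins 56.8% to the left.

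Interferon effectors, the proteins that block viral entry, translation and assembly, rose as a group: 52 of 58 tested members were higher DEGs and none was lower (50 higher and none lower without PBS replicate 3), with a median log2 fold change of 2.43. Ifit1, which binds viral RNA that lacks the host cap, was at 94.3, 71.7, 112 and 96.6 CPM with PBS and 3104, 3232, 2573 and 3745 CPM with ProteinFx (log2 fold change 5.25, SE 0.19, adjusted p = 2.2e-09). Its relative Ifit1bl1 rose by 6.50 ± 0.25 on the log2 scale. Rsad2, viperin, which makes a chain-terminating nucleotide, was at 160, 159, 169 and 165 CPM with PBS and 3807, 3565, 3556 and 4002 CPM with ProteinFx (log2 fold change 4.68, SE 0.12, adjusted p = 2.3e-10). For both genes the lowest ProteinFx library was far above the highest PBS library. Mx1, of the dynamin-like GTPases, rose from 17 ± 1.51 CPM to 518 ± 38.6 CPM. Isg15, a ubiquitin-like modifier, was at 65.8, 66, 27 and 43.8 CPM with PBS and 735, 730, 768 and 679 CPM with ProteinFx, a log2 fold change of 4.01 ± 0.24, and Oasl1, an oligoadenylate synthetase-like protein, rose by 3.77 ± 0.25. In both genes PBS replicate 3 was the lowest library, and every ProteinFx library was above every PBS library.

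All 18 tested interferon GTPases, the proteins that attack the membranes around intracellular pathogens, were higher DEGs (18 of 18 without PBS replicate 3), with a median of 4.81. Iigp1, of the immunity-related GTPase family, was at 6.76, 7.42, 8.46 and 5.34 CPM with PBS and 344, 421, 309 and 301 CPM with ProteinFx (log2 fold change 5.79, SE 0.17, adjusted p = 5.7e-10). Gbp2, a guanylate-binding protein, was at 21.7, 21.9, 15.1 and 23.7 CPM with PBS and 745, 713, 713 and 879 CPM with ProteinFx (log2 fold change 5.37, SE 0.17, adjusted p = 8e-10). Gbp3 rose from 13.3 ± 2.49 CPM to 442 ± 59.8 CPM and Gbp5 from 1.63 ± 1.02 CPM to 44.4 ± 10.5 CPM. Gbp11 had 3 counts over the PBS libraries and 240 over the ProteinFx libraries, a ratio of 90.3 (95% interval 30.5 to 441). These families hold close copies, and reads that map to several of them were shared out as fractions, so the level of a single member is less certain than that of the family.

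**Figure D4:**
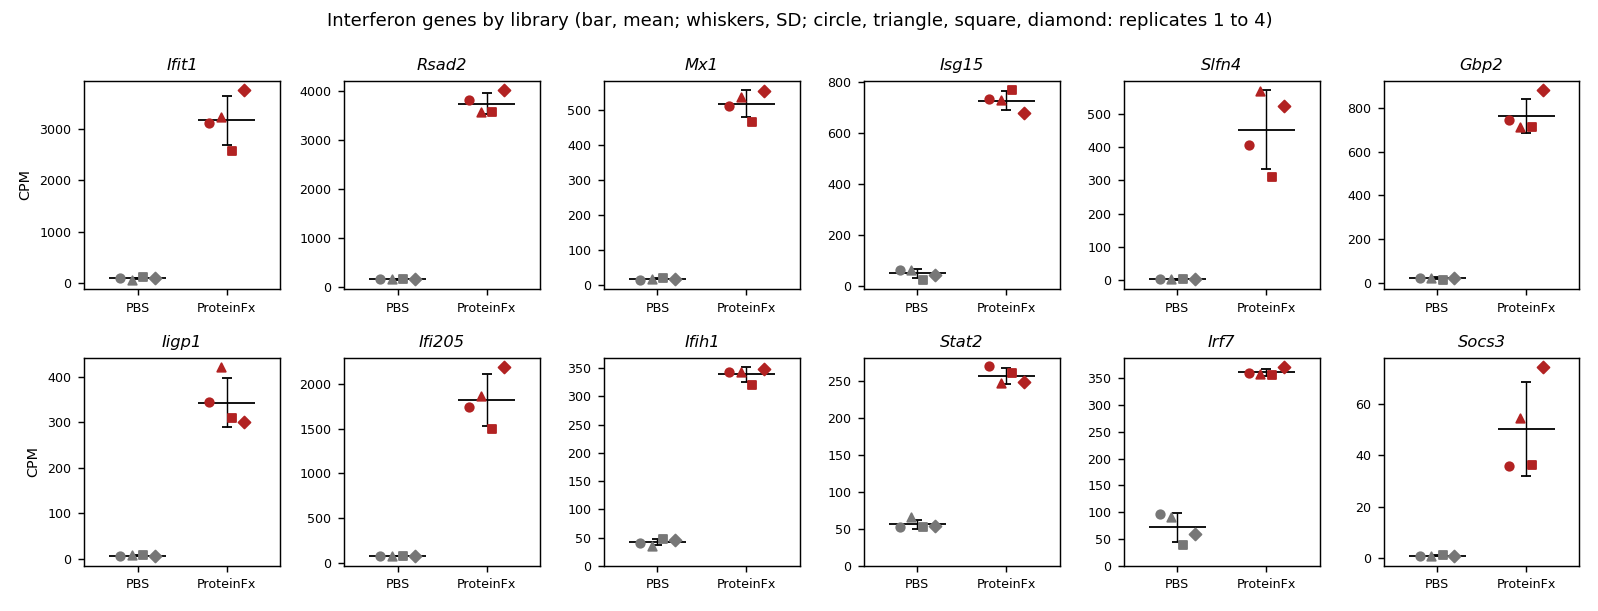
CPM in each library (linear axes, 1 panel per gene) of 12 interferon-induced genes, with PBS and ProteinFx libraries as separate points, a line at each group mean and whiskers of 1 SD (n = 4). Rsad2 was at 159 to 169 CPM with PBS and at 3556 to 4002 CPM with ProteinFx, and the groups of no gene drawn overlap.

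Sensors that feed this pathway rose as well. Of 23 tested nucleic acid sensors, 14 were higher DEGs and none was lower (15 and none without PBS replicate 3), with a median of 1.33. The cytosolic RNA sensor Ifih1 (MDA5) was at 40.8, 35.5, 48.3 and 45.9 CPM with PBS and 344, 344, 320 and 349 CPM with ProteinFx (log2 fold change 3.16, SE 0.12, adjusted p = 3.7e-09), and Rigi (RIG-I) rose by 2.82 ± 0.11. Zbp1, a sensor of left-handed nucleic acids that starts necroptosis, rose by 3.30 ± 0.19. Ifi205, Ifi209 and Ifi213, of the Ifi200 family of DNA-binding proteins, rose by 4.73 ± 0.15, 4.02 ± 0.14 and 4.79 ± 0.15. Tlr3, the endosomal receptor for double-stranded RNA, rose from 6.58 ± 1.23 CPM to 30.7 ± 1.23 CPM. Tlr7, the endosomal receptor for single-stranded RNA, had a log2 fold change of 0.37 ± 0.10 (adjusted p = 0.0084) and was no DEG.

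The interferon itself was barely detected. Ifnb1, interferon beta, had no count in the 4 PBS libraries and 0.957, 0, 0.754 and 0.347 CPM with ProteinFx, which is too close to the floor of 3 counts for a fold change. Of 24 tested signalling genes, 9 were higher DEGs and 2 were lower (10 and 2 without PBS replicate 3), with a median of 0.63. Stat2, which carries the signal of the interferon receptor to the nucleus, was at 52.1, 65.7, 52.6 and 53.7 CPM with PBS and 270, 247, 261 and 248 CPM with ProteinFx (log2 fold change 2.36, SE 0.11, adjusted p = 1.5e-08). The transcription factors Irf7 and Irf1 rose by 2.49 ± 0.24 and 1.47 ± 0.16. The inhibitors of the pathway rose too: Usp18, which removes ISG15 and blocks the interferon receptor, by 3.56 ± 0.15, Socs1 by 3.77 ± 0.44 and Socs3, an inhibitor of STAT3, by 6.11 ± 0.36. Socs3 was at 0.82, 0.618, 1.14 and 0.712 CPM with PBS and 36, 54.7, 36.2 and 74.4 CPM with ProteinFx. The members that fell were Stat6, the factor of interleukin-4 and interleukin-13, with 44.5, 56.1, 15.8 and 32 CPM with PBS and 13.2, 8.87, 12.6 and 10.4 CPM with ProteinFx (log2 fold change -1.55, SE 0.32, adjusted p = 0.0019), and Irf8, a factor of monocyte development (log2 fold change -1.1, SE 0.16, adjusted p = 0.00017). Removal of length and GC trends ended the call for Irf8. Irf4 was at 0.615 to 0.915 CPM with PBS and 0.174 to 0.253 CPM with ProteinFx and was not tested.

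Chemokines showed some of the highest levels reached. Of 17 tested, 15 were higher DEGs and 1 was lower (14 and 1 without PBS replicate 3), with a median of 4.0. The monocyte attractant Ccl2 was at 94.1, 90.8, 132 and 48.9 CPM with PBS and 2232, 3224, 2594 and 3097 CPM with ProteinFx (log2 fold change 5.10, SE 0.28, adjusted p = 5.5e-08). Ccl7, which binds some of the same receptors, was at 105, 90.5, 88.7 and 43.6 CPM with PBS and 2775, 3174, 3512 and 2908 CPM with ProteinFx (log2 fold change 5.41, SE 0.25, adjusted p = 1.5e-08). For both genes every ProteinFx library was far above every PBS library. Cxcl2, which attracts neutrophils, was at 4.51, 5.25, 4.35 and 5.16 CPM with PBS and 50.7, 53, 60.6 and 111 CPM with ProteinFx, and ProteinFx replicate 4 was the highest. Cxcl9, a ligand of CXCR3 like Cxcl10, rose by 3.70 ± 0.26 to 5.78 to 7.35 CPM. Cxcl11, the remaining ligand of that receptor, had 1 count over the PBS libraries and 117 over the ProteinFx libraries, a ratio of 132 (95% interval 23.2 to 5260). Ccl5, which attracts T cells and eosinophils, rose by 2.89 ± 0.28, and Ccl24, eotaxin-2, a ligand of the eosinophil receptor CCR3, rose from 0.422 ± 0.293 CPM to 9.08 ± 2.67 CPM. Ccl6 was the member that fell (log2 fold change -1.08, SE 0.20, adjusted p = 0.00091), and leaving out PBS replicate 1 or ProteinFx replicate 2 ended its call.

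Cytokines moved less evenly. Of 17 tested, 8 were higher DEGs and 2 were lower, with a median of 0.90. Il1b, interleukin-1 beta, was at 0, 0.463, 0.915 and 0.534 CPM with PBS and 18.4, 28.9, 24.1 and 87.1 CPM with ProteinFx (log2 fold change 6.52, SE 0.72, adjusted p = 2.2e-05). Il1a was at 8.2, 8.96, 5.49 and 5.34 CPM with PBS and 89.4, 106, 76.9 and 285 CPM with ProteinFx (log2 fold change 4.49, SE 0.45, adjusted p = 1.1e-05). In both genes ProteinFx replicate 4 was well above the other ProteinFx libraries, and no library overlapped between the groups. Tnf, tumour necrosis factor, rose from 5.54 ± 1.38 CPM to 22.6 ± 6.74 CPM. Il6 had no count with PBS and 45 counts over the ProteinFx libraries, at least 4.11-fold higher against a floor of 3 counts in each library. Il12b had 2 counts with PBS and 12 with ProteinFx, a ratio of 6.77 (95% interval 1.51 to 62.3). Il10 was at 1.08 to 1.84 CPM and 2.51 to 4.34 CPM, and Il27 at 0.82 to 1.83 CPM and 2.26 to 4.56 CPM, with PBS and ProteinFx in this order, and neither was tested. The growth factors Pdgfb and Tgfb1 fell with log2 fold changes of -2.04 ± 0.22 and -1.13 ± 0.28, and the call for Tgfb1 ended without PBS replicate 2 and after removal of length and GC trends. The growth factor Igf1 was at 1979 ± 273 CPM with PBS and 1450 ± 171 CPM with ProteinFx (SD; adjusted p = 0.089).

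NF-kB factors and feedback genes held 15 higher and 2 lower DEGs among 31 tested (15 and 3 without PBS replicate 3), with a median of 0.78. Nfkbiz, an atypical inhibitor that also activates a group of late genes, was at 3.89, 6.18, 10.1 and 5.87 CPM with PBS and 78.9, 67.9, 59.8 and 91.8 CPM with ProteinFx (log2 fold change 3.71, SE 0.24, adjusted p = 2.5e-07). Nfkbia, which holds NF-kB in the cytosol, rose by 2.11 ± 0.14, Tnfaip3 (A20), a ubiquitin-editing enzyme, by 2.11 ± 0.17 and Zc3h12a, an RNase that degrades cytokine mRNA, by 2.44 ± 0.21. Ier3, an early response gene, rose by 2.36 ± 0.22. Among the subunits, Nfkb1 rose by 1.1 ± 0.15, whereas Rela was at 38.1, 41.7, 13.7 and 29 CPM with PBS and 12.6, 7.1, 12.8 and 12.5 CPM with ProteinFx (log2 fold change -1.27, SE 0.31, adjusted p = 0.005), lower in every ProteinFx library. Removal of length and GC trends ended the calls for Rela and Nfkb1, and total counts also ended that for Nfkb1.

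Surface receptors divided. Of 35 tested receptors on a list that mixes activating and inhibitory members, 18 were higher and 5 were lower DEGs (the same counts without PBS replicate 3). The median was 1.22. Clec4e (Mincle), a receptor for mycobacterial lipid and for dying cells, was at 21.3, 18.8, 21.5 and 17.8 CPM with PBS and 652, 785, 595 and 1234 CPM with ProteinFx (log2 fold change 5.54, SE 0.26, adjusted p = 1.5e-08). Cd69, an early activation antigen, rose by 6.27 ± 0.23 from 0.984 ± 0.391 CPM to 72.1 ± 11.1 CPM. Marco, a scavenger receptor of airway macrophages, rose by 3.36 ± 0.24, and the Fc receptors Fcgr1 and Fcgr2b rose by 2.29 ± 0.14 and 2.54 ± 0.12. Olr1, a receptor for oxidised lipoprotein, had 2 counts over the PBS libraries and 379 over the ProteinFx libraries, a ratio of 214 (95% interval 58.8 to 1772). Of the Toll-like receptors at the surface, Tlr2 rose by 1.22 ± 0.20, Tlr4 had a log2 fold change of 0.58 ± 0.12 and was no DEG, and the co-receptor Cd14 had one of 0.13 ± 0.20 (adjusted p = 0.6). The inflammasome gene Nlrp3 had a log2 fold change of 0.75 ± 0.20 and was no DEG. The members that fell the most were Trem2, a lipid receptor, at 641, 597, 327 and 457 CPM with PBS and 105, 76.8, 117 and 78.3 CPM with ProteinFx (log2 fold change -2.26, SE 0.22, adjusted p = 7.1e-06), Cd300a, an inhibitory receptor for phosphatidylserine (log2 fold change -2.62, SE 0.22, adjusted p = 2.2e-06), and Clec4n (Dectin-2), a receptor for fungal mannan (log2 fold change -2.78, SE 0.35, adjusted p = 6.4e-05).

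Genes of type 2 activation, the program of interleukin-4 and interleukin-13, held 9 higher and 2 lower DEGs among 17 tested (also without PBS replicate 3), with a median of 1.13. Beside Arg1 and Ccl24, Tgm2, transglutaminase 2, rose from 22.9 ± 7.53 CPM to 67.9 ± 9.69 CPM. Chil3, a chitinase-like lectin, was at 12, 11.2, 11.9 and 8.6 CPM with PBS and 19.7, 22.3, 30.9 and 15.7 CPM with ProteinFx (log2 fold change 1.18, SE 0.21, adjusted p = 0.00063), and its call ended without ProteinFx replicate 3 and after removal of length and GC trends. The receptor chains Il4ra and Il13ra1 rose by 1.22 ± 0.21 and 1.67 ± 0.16. Other marks of the program did not move with them: the mannose receptor Mrc1 was at 649, 592, 968 and 609 CPM with PBS and 633, 565, 746 and 450 CPM with ProteinFx (log2 fold change -0.07, SE 0.18, adjusted p = 0.77), the factor Egr2 had a log2 fold change of -0.79 ± 0.27 and was no DEG, and Pparg fell, with a log2 fold change of -1.80 ± 0.15. Retnla had no count in any of the 8 libraries, and Mgl2 was at 1.08 CPM or less in each.

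Arginine, itaconate and tryptophan metabolism and the eicosanoid enzymes listed with it held 10 higher and 1 lower DEGs among 16 tested (12 and 2 without PBS replicate 3), with a median of 1.74. The arginine importer Slc7a2 was at 4.1, 2.32, 2.29 and 3.2 CPM with PBS and 85.4, 105, 150 and 234 CPM with ProteinFx (log2 fold change 5.76, SE 0.38, adjusted p = 2.8e-07). Ass1, which rebuilds arginine from citrulline, rose by 3.89 ± 0.25. Nos2, inducible nitric oxide synthase, which uses the same amino acid as arginase, was at 0.41, 0.309, 0 and 0.178 CPM with PBS and 10.1, 18, 5.03 and 18 CPM with ProteinFx (log2 fold change 5.81, SE 0.59, adjusted p = 1.1e-05). Ptgs2 (COX-2), the inducible enzyme of prostaglandin synthesis, rose by 4.40 ± 0.51, whereas Ptgs1 had a log2 fold change of -0.57 ± 0.30 and was no DEG. Alox5ap, needed to make leukotrienes, fell, with a log2 fold change of -1.93 ± 0.14. Ch25h, which makes an antiviral oxysterol, was at 1.84, 0.927, 0.229 and 0.356 CPM with PBS and 1.53, 7.1, 2.26 and 7.63 CPM with ProteinFx and was not tested.

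Presentation by MHC class I rose as a group, with 18 higher and no lower DEGs among 20 tested (15 and none without PBS replicate 3) and a median of 1.44. The heavy chain H2-K1 was at 2835, 2589, 2530 and 2762 CPM with PBS and 7164, 6601, 5829 and 6906 CPM with ProteinFx (log2 fold change 1.48, SE 0.11, adjusted p = 1.1e-06). The light chain B2m rose by 1.33 ± 0.11 to 11213 to 13586 CPM, the peptide transporter Tap1 by 2.1 ± 0.15, the immunoproteasome subunit Psmb9 by 1.45 ± 0.17 and Nlrc5, the class I transactivator, by 2.29 ± 0.14. The class I genes H2-Q7 and H2-T22 rose by 4.37 ± 0.21 and 2.44 ± 0.17, and part of their reads map to several class I genes.

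MHC class II and costimulation held 9 higher and 3 lower DEGs among 22 tested (also without PBS replicate 3), with a median of 0.68. The checkpoint ligand Cd274 (PD-L1) was at 24.2, 22.9, 38.4 and 27.9 CPM with PBS and 284, 392, 297 and 326 CPM with ProteinFx (log2 fold change 3.69, SE 0.18, adjusted p = 2.1e-08). Cd86, a ligand of CD28, rose by 2.85 ± 0.13, Cd40 by 2.24 ± 0.22 and Slamf8 by 3.01 ± 0.14. The inhibitory receptors Havcr2 (TIM-3) and Vsir (VISTA) fell with log2 fold changes of -1.39 ± 0.20 and -1.36 ± 0.13. Cd83, a marker of mature dendritic cells, had one of -1.08 ± 0.16, and its call ended without PBS replicate 1 and after removal of length and GC trends. The invariant chain Cd74 had a log2 fold change of 0.58 ± 0.27 (adjusted p = 0.092), and the class II transactivator Ciita was at 1.53 CPM or less in each library and was not tested.

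Genes of resting and tissue macrophages moved in both directions, with 7 higher and 12 lower DEGs among 33 tested (7 and 11 without PBS replicate 3) and a median of -0.09 (0.20 without it). Adgre1, which codes for the macrophage antigen F4/80, was at 763, 776, 1013 and 885 CPM with PBS and 2833, 2862, 2839 and 3329 CPM with ProteinFx (log2 fold change 1.96, SE 0.13, adjusted p = 3e-07). Cebpb, a factor of inflammatory macrophages, and Ptger4, a receptor for prostaglandin E2, rose by 2.16 ± 0.12 and 2.60 ± 0.16. Csf1r, the receptor for the survival factor of macrophages, had a log2 fold change of -0.48 ± 0.18 and Spi1 (PU.1) one of -0.50 ± 0.23, and neither was a DEG. Cx3cr1 had 1 count over the PBS libraries and 7 over the ProteinFx libraries, a ratio of 7.9 (95% interval 1.01 to 356).

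Phagocytosis and complement genes held 3 higher and 9 lower DEGs among 23 tested (3 and 8 without PBS replicate 3), with a median of -0.48. The complement factors C3 and Cfb rose by 3.63 ± 0.17 and 4.14 ± 0.31, and C3 reached 134, 146, 151 and 140 CPM from 14.8, 16.2, 8.46 and 11.6 CPM. Itgam, a chain of complement receptor 3, rose by 1.49 ± 0.14. Mfge8, like Gas6 a bridge to dying cells, was at 236, 216, 58.6 and 166 CPM with PBS and 24.5, 17, 32.2 and 33.8 CPM with ProteinFx (log2 fold change -2.48, SE 0.38, adjusted p = 0.00023), and the integrin chain Itgb3 had a log2 fold change of -2.45 ± 0.33. The receptors that Gas6 binds did not fall with it, since Mertk had a log2 fold change of 0.51 ± 0.12 and Axl one of -0.30 ± 0.25 (adjusted p = 0.0039 and 0.32), and neither was a DEG. The complement component C1qa had one of -0.18 ± 0.31 (adjusted p = 0.65).

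Iron and antioxidant genes held 2 higher and 8 lower DEGs among 26 tested, with a median of 0.00. Sod2, the mitochondrial superoxide dismutase, was at 86.2, 79.4, 93.5 and 77.9 CPM with PBS and 1096, 1262, 1177 and 1827 CPM with ProteinFx (log2 fold change 4.17, SE 0.19, adjusted p = 1.1e-08), while its cytosolic counterpart Sod1 was at 273, 262, 166 and 227 CPM with PBS and 48.2, 59.3, 60.3 and 48.6 CPM with ProteinFx (log2 fold change -1.94, SE 0.16, adjusted p = 2.2e-06). The iron importer Slc11a2 rose by 1.1 ± 0.13, opposite to the exporter Slc40a1, and by 0.93 under total counts, which is short of 1 and ended its call. Of the ferritin chains, Ftl1 was at 2898, 3265, 717 and 1842 CPM with PBS and 424, 332, 552 and 438 CPM with ProteinFx (log2 fold change -2.15, SE 0.37, adjusted p = 0.00059), and Fth1 had a log2 fold change of 0.88 ± 0.11 and was no DEG. PBS replicate 3 was well below the other PBS libraries for Ftl1, and the fall was -2.44 on the log2 scale without it. Hmox1, heme oxygenase 1, and the transferrin receptor Tfrc had log2 fold changes of -0.11 ± 0.15 and -0.13 ± 0.15 (adjusted p = 0.54 and 0.5).

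Cytosolic ribosomal proteins were the list with the most falls. Of 88 tested, 50 were lower DEGs and none was higher, with a median of -1.05, and 3 had a log2 fold change above 0. Their share of all counts was 6.83%, 6.68%, 4.99% and 6.21% with PBS and 3.11%, 3.04%, 3.19% and 2.47% with ProteinFx (exact two-sided permutation p = 0.0286). The groups did not overlap, and PBS replicate 3 was the lowest of the PBS libraries. The number of lower DEGs was 55 without PBS replicate 3 and 29 after removal of length and GC trends. Rps16 was at 623, 572, 182 and 428 CPM with PBS and 91.8, 83, 98.8 and 61.6 CPM with ProteinFx (log2 fold change -2.27, SE 0.32, adjusted p = 0.00013), and Rpl36 had a log2 fold change of -1.85 ± 0.27. Both had fractional counts from reads that map to several places, and the call for Rpl36 ended after removal of the trends. Ribosome biogenesis held 2 lower DEGs and none higher among 37 tested, with a median of -0.15. Nop10 had a log2 fold change of -1.02 ± 0.17, a call that ended without PBS replicate 1 or ProteinFx replicate 4, whereas nucleolin, Ncl, and the growth regulator Myc had log2 fold changes of -0.27 ± 0.18 and -0.47 ± 0.21 and were no DEGs.

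Energy metabolism gave fewer calls. Of 80 nuclear genes of oxidative phosphorylation, 16 were lower DEGs and 1 was higher, with a median of -0.49 (22 lower without PBS replicate 3, 9 lower after removal of length and GC trends). The complex I subunits Ndufb11 and Ndufv3 fell with log2 fold changes of -1.72 ± 0.21 and -1.69 ± 0.19. The ATP synthase subunit Atp5mc2 had -1.63 ± 0.29 and cytochrome c, Cycs, had 1.28 ± 0.10, and removal of length and GC trends ended both calls. Of 13 mitochondrial genes, 1 was a DEG, mt-Nd3, at 216, 247, 348 and 259 CPM with PBS and 100, 77.5, 129 and 112 CPM with ProteinFx (log2 fold change -1.18, SE 0.18, adjusted p = 0.00022), and all 13 had a log2 fold change below 0, with a median of -0.46. Glycolysis and hypoxia genes held 5 higher and 6 lower DEGs among 26 tested, with a median of 0.18. The glucose transporters Slc2a6 and Slc2a1 rose by 3.67 ± 0.19 and 1.30 ± 0.13, Pfkfb3, which speeds glycolysis, by 1.85 ± 0.16. Ero1a, an oxidase of the endoplasmic reticulum, rose by 1.32 ± 0.13, a call that ended after removal of length and GC trends. Hk2, hexokinase 2, rose by 1.02 ± 0.13 and was no DEG without PBS replicate 3 or ProteinFx replicate 2, with total counts or with reference genes. Hif1a and Ldha had log2 fold changes of 0.94 ± 0.13 and 0.85 ± 0.11 and were no DEGs, and Ndrg1 fell with a log2 fold change of -2.22 ± 0.24. The glycolytic enzyme Aldoa, at -1.01 ± 0.22, lost its call under 8 of the alternatives.

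Cholesterol genes held 8 higher and 2 lower DEGs among 27 tested (also without PBS replicate 3), with a median of 0.60. The enzymes Hsd17b7, Lss and Scd2 rose by 1.93 ± 0.18, 1.31 ± 0.18 and 1.33 ± 0.18, and Hmgcs1 had a log2 fold change of 0.57 ± 0.14 and was no DEG. Apoe, the apolipoprotein that carries lipid out of macrophages, was at 2456, 2504, 772 and 1605 CPM with PBS and 481, 425, 463 and 379 CPM with ProteinFx (log2 fold change -1.90, SE 0.30, adjusted p = 0.00028). The exporter Abca1 had a log2 fold change of 0.19 ± 0.10 (adjusted p = 0.13), and Ebp, an enzyme of the late pathway, had one of -1.17 ± 0.24 and lost its call after removal of length and GC trends.

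Cell cycle genes held 1 higher and 11 lower DEGs among 34 tested (1 and 8 without PBS replicate 3), with a median of -0.60. Ccnd2, cyclin D2, was at 9.84, 9.73, 10.1 and 8.9 CPM with PBS and 33.7, 34, 45.2 and 32.4 CPM with ProteinFx (log2 fold change 2.08, SE 0.15, adjusted p = 5e-07), while Ccnd1 had a log2 fold change of -0.36 ± 0.13 and was no DEG. The replication helicase subunit Mcm2 and the mitotic kinesin Kif23 fell with log2 fold changes of -1.13 ± 0.17 and -1.80 ± 0.30. Mcm5 had a log2 fold change of -0.92 ± 0.28, the proliferation marker Mki67 one of -0.38 ± 0.29 and the cell cycle inhibitor Cdkn1a one of 0.29 ± 0.22, and none was a DEG. For Mki67, PBS replicate 3 was at 25.4 CPM and the other 7 libraries were at 8.29 to 11.8 CPM.

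Survival and cell death genes held 9 higher and 1 lower DEGs among 32 tested, with a median of 0.55. Casp4, the caspase that senses cytosolic lipopolysaccharide, was at 24.7, 25.3, 29.5 and 29.5 CPM with PBS and 171, 186, 136 and 170 CPM with ProteinFx (log2 fold change 2.77, SE 0.13, adjusted p = 1.9e-08). Mlkl, the executor of necroptosis, and the death receptor Fas rose by 1.89 ± 0.17 and 1.68 ± 0.20. The BCL2 family member Bcl2a1a rose by 2.81 ± 0.11, and its close copy Bcl2a1b had a log2 fold change of 0.85 ± 0.11 and was no DEG.

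Proteases, matrix and coagulation genes held 9 higher and 4 lower DEGs among 24 tested, with a median of -0.10 (0.10 after removal of length and GC trends). The collagenase Mmp13 was at 9.02, 12.8, 15.8 and 12.8 CPM with PBS and 396, 469, 546 and 742 CPM with ProteinFx (log2 fold change 5.59, SE 0.25, adjusted p = 9.1e-09). Mmp14, a membrane protease that activates other matrix proteases, rose by 4.67 ± 0.17, and coagulation factor X, F10, by 3.42 ± 0.23. Serpinb2, an inhibitor of plasminogen activators, had 2 counts over the PBS libraries and 125 over the ProteinFx libraries, a ratio of 70.5 (95% interval 19.1 to 589). Ctsd, the lysosomal protease cathepsin D, was at 5825, 5878, 2090 and 3659 CPM with PBS and 933, 810, 1000 and 847 CPM with ProteinFx (log2 fold change -2.11, SE 0.27, adjusted p = 7.3e-05). The transglutaminase chain F13a1 and the protease inhibitor Timp2 fell with log2 fold changes of -2.18 ± 0.43 and -1.34 ± 0.18. The macrophage elastase Mmp12 and the activator Plau had log2 fold changes of -0.76 ± 0.21 and -0.84 ± 0.19 and were no DEGs, and Timp1 was at 1.96 to 2.25 CPM with PBS and 2.76 to 3.8 CPM with ProteinFx and was not tested.

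Removal of length and GC trends, which covers 10482 genes, moved some of the smaller list counts and some medians as well. Lower DEGs numbered 3 in place of 6 in glycolysis and hypoxia, and 0 in place of 2 among NF-kB factors and feedback genes. They numbered 1 in place of 2 in interferon signalling, cytokines, ribosome biogenesis and cholesterol genes, and 0 in place of 1 in survival and cell death. They numbered 1 in place of 0 among nucleic acid sensors and 2 in place of 1 among mitochondrially encoded genes of oxidative phosphorylation. No count of higher DEGs moved by over 1.5 times in any list. The medians became 2.25 for interferon effectors, 4.34 for interferon GTPases, 1.60 for nucleic acid sensors, 1.41 for arginine, itaconate and tryptophan metabolism and 1.71 for MHC class I presentation. They became -0.79 for cytosolic ribosomal proteins, -0.18 and -0.74 for nuclear and mitochondrially encoded genes of oxidative phosphorylation, 0.45 for cholesterol genes and 0.46 for survival and cell death. The median of proteases, matrix and coagulation genes changed sign.

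The reference genes of the study stayed close to 0 under TMM scaling. Rab14, Arpc2 and Cltc had log2 fold changes of 0.14 ± 0.10, -0.04 ± 0.10 and 0.15 ± 0.11 (adjusted p = 0.22, 0.75 and 0.25), and under total counts Arpc2 was at -0.21.

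ProteinFx and the vesicle fraction from mice of the same genotype gave different levels of many genes. ProteinFx was tested against EVFx over 10443 genes with the same limits, and 701 genes (6.71%) were higher and 712 (6.82%) were lower with ProteinFx, with a median log2 difference of -0.02. The ProteinFx libraries are the same in both comparisons, so these values are set beside those against PBS and no overlap is given. Differences are ProteinFx minus EVFx on the log2 scale, ± SE.

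ProteinFx was the fraction with high levels of the monocyte attractants and of Arg1. Ccl7 was at 103, 87.7, 30.6 and 38.7 CPM with EVFx, a difference of 5.56 ± 0.31 (adjusted p = 2.5e-09). Ccl2 was at 161, 147, 54.9 and 65.4 CPM with EVFx and Ccl12 at 133, 104, 46.9 and 56.4 CPM, differences of 4.70 ± 0.30 and 4.29 ± 0.27. Arg1 was at 0.646, 0.375, 0 and 0.121 CPM with EVFx, a difference of 8.72 ± 0.21 (adjusted p = 9.2e-13). For these 4 genes no EVFx library came near a ProteinFx library. The arginine importer Slc7a2 and Mmp13 also differed, by 4.17 ± 0.30 and 4.21 ± 0.18. Of 17 tested members of the type 2 list, 8 were higher with ProteinFx than with EVFx and none was lower, with a median of 0.92.

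Macrophage genes differed from EVFx in both directions. Mrc1 was at 60.4, 57.4, 53.9 and 45.4 CPM with EVFx, a difference of 3.46 ± 0.14 (adjusted p = 9e-11). Igf1 and Ccnd1 differed by 1.85 ± 0.10 and 2.86 ± 0.14. These 3 genes were no DEGs between ProteinFx and PBS. The homeostatic list held 12 higher and 2 lower DEGs among 29 tested, with a median of 0.66, and the other members were no DEGs. Of the macrophage markers, Itgam, Fcgr1 and Mertk were higher, with differences of 2.21 ± 0.11, 1.82 ± 0.16 and 1.26 ± 0.12, and Cd14, a co-receptor for lipopolysaccharide, was lower, with -1.29 ± 0.13. Spi1, Csf1r, Cd68, Lyz2 and Adgre1 were no DEGs, with -0.76 ± 0.12, -0.37 ± 0.12, -0.19 ± 0.09, -0.07 ± 0.09 and 0.10 ± 0.09.

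Several inflammatory genes that rose over PBS were nevertheless lower with ProteinFx than with EVFx. Tnf was at 149, 147, 137 and 204 CPM with EVFx, a difference of -2.79 ± 0.17 (adjusted p = 7.4e-09), and Cxcl2 at 388, 418, 658 and 602 CPM, a difference of -2.89 ± 0.24 (adjusted p = 1.3e-07). Clec4e, Ptgs2 and Ccl5 differed by -1.89 ± 0.19, -1.98 ± 0.25 and -1.99 ± 0.17. Il12b, which was not tested against PBS, was at 24.9, 17.3, 20.6 and 23 CPM with EVFx, a difference of -5.03 ± 0.25. The NF-kB list held 1 higher and 10 lower DEGs among 31 tested, with a median of -0.66. Hmox1, which was no DEG between ProteinFx and PBS, was at 8177, 7894, 9180 and 9591 CPM with EVFx, a difference of -3.19 ± 0.13 (adjusted p = 9.4e-11). The antioxidant and iron list held 2 higher and 15 lower DEGs among 26 tested, with a median of -1.34.

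Interferon genes were higher with ProteinFx in part of the list. Of 58 interferon effectors, 10 were higher and 1 was a lower DEG, with a median of 0.46, and of 18 interferon GTPases 9 were higher and none was lower, with a median of 0.99. Ifit1 was at 1837, 1685, 1211 and 1273 CPM with EVFx, a difference of 1.08 ± 0.14. Slfn4, Ifit1bl1 and Iigp1 differed by 2.92 ± 0.28, 3.15 ± 0.29 and 2.18 ± 0.23. Gbp2 differed by 0.16 ± 0.12 (adjusted p = 0.24) and Isg15 by -0.51 ± 0.12, and neither was a DEG. Of the leading rises, Edn1, Cxcl10 and Ms4a4c were also higher DEGs (2.58 ± 0.26, 1.56 ± 0.30 and 1.85 ± 0.18). Tarm1, Fpr1 and Acod1 were no DEGs (-0.21 ± 0.23, -0.14 ± 0.23 and -0.60 ± 0.15), and H2-M2 was a lower DEG (-1.14 ± 0.25). Some leading falls differed between the fractions and others did not. Cdkn1c was at 52.9, 38.3, 110 and 68 CPM with EVFx and Slc40a1 at 174, 164, 168 and 158 CPM, differences of -4.89 ± 0.37 and -3.74 ± 0.13. Sort1, Gas6 and Mgst3 were also lower DEGs (-2.48 ± 0.24, -1.11 ± 0.14 and -1.28 ± 0.18), and Rasgrp3 was no DEG (-0.17 ± 0.23). Gpr34, Pcp4l1, Lsp1 and Atosa were not tested against EVFx, where their means were 0.265, 2.0, 3.17 and 2.2 CPM.

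**Figure D5:**
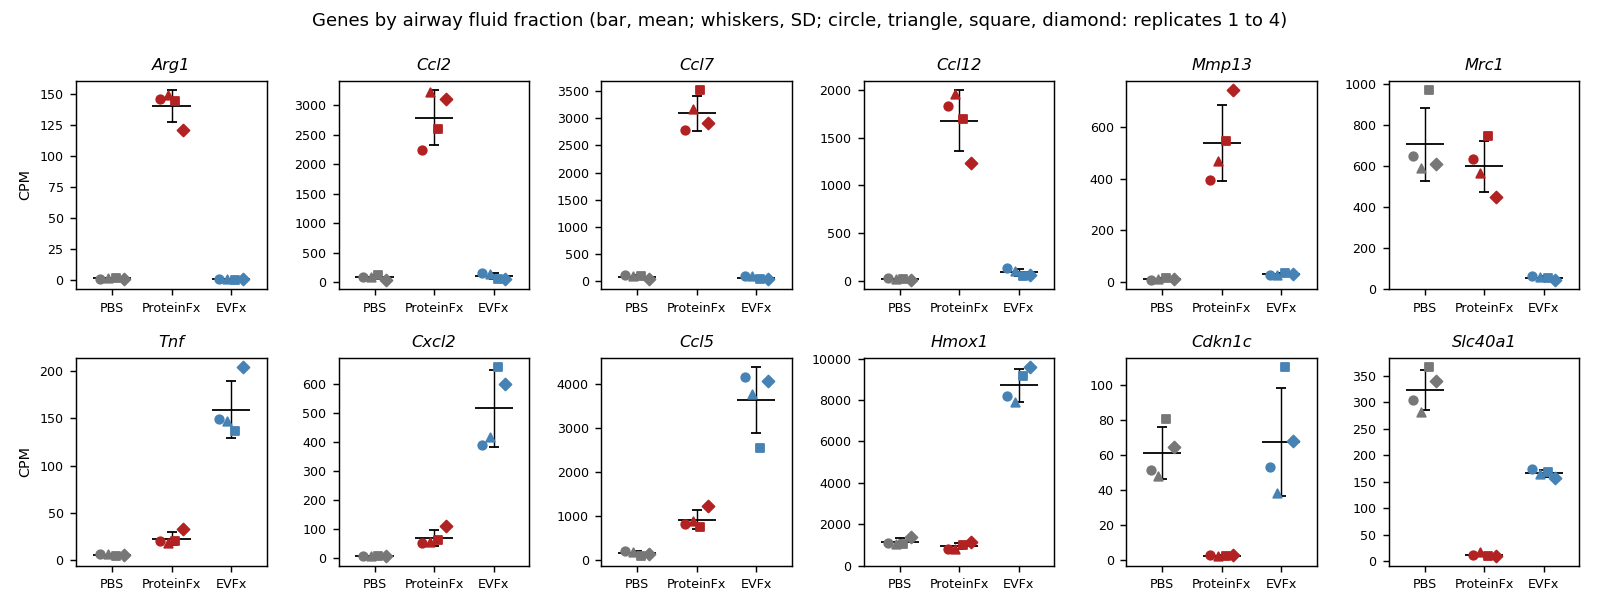
CPM in each library (linear axes, 1 panel per gene) of genes that differed between the treatments, with PBS, ProteinFx and EVFx libraries as separate points, a line at each group mean and whiskers of 1 SD (n = 4). Arg1 and Ccl7 are high with ProteinFx, while Tnf, Cxcl2 and Hmox1 are highest with EVFx.

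Macrophage markers were present in all 8 libraries. The 10 markers summed to 9621 to 13722 CPM with PBS and to 10453 to 11289 CPM with ProteinFx, and 3 of them were higher DEGs (Adgre1, Itgam and Fcgr1) and none was lower. Of 7 eosinophil markers, Epx, Prg2, Ear1, Ear6 and Il5ra had 3 counts or fewer in each library, and the sum was 7.65 to 13.6 CPM with PBS and 14.7 to 21.4 CPM with ProteinFx, with Ccr3 as a higher DEG (1.09 ± 0.23). Of 12 neutrophil markers, Ly6g, Elane, Mpo and Cxcr2 had 3 counts or fewer in each library, and the sum was 353 to 374 CPM and 254 to 376 CPM, with Ngp as a lower DEG (-2.01 ± 0.35). T cell markers summed to 2.74 to 9.43 CPM and 0.868 to 1.91 CPM, and B or plasma cell markers to 10 to 16.2 CPM and 2.78 to 3.8 CPM, with Ighm as a lower DEG (-3.24 ± 0.29). Fibroblast markers summed to 24.9 to 51.6 CPM and 18.6 to 30 CPM, with Col3a1 as a lower DEG (-1.21 ± 0.27). Endothelial markers summed to 19.5 to 28.1 CPM and 25.6 to 27.6 CPM, with Kdr as a higher DEG (1.16 ± 0.20). Natural killer cell markers summed to 0.307 to 0.686 CPM and 1.24 to 2.95 CPM, dendritic cell markers to 0.41 to 3.09 CPM and 0.76 to 2.01 CPM, mast cell or basophil markers to at most 1.14 CPM in any library, and epithelial markers to 8.53 to 33.1 CPM and 11.9 to 30.5 CPM. Erythroid or platelet markers summed to 802 to 1217 CPM and 958 to 1128 CPM, nearly all of it Pf4 (1002 ± 196 CPM and 1070 ± 75.8 CPM), and the globins had 3 counts or fewer in each library. Their part in the results was not tested. These are bulk libraries, in which fewer cells of a type and less RNA per cell cannot be told apart.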

How the data were processed

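RNA sequencing of BMDMs was read from 1 deposited table with a column for each library. Reads were filtered with fastp 0.24.0, aligned with STAR 2.7.11, reduced to unique molecular identifiers and counted per gene with featureCounts (Subread 2.1.1), by strand, where a read with several matches adds a fraction to each gene. The labels name GRCm39. The authors deposited expected counts, not normalized and rounded to whole numbers here, and CPM, each count over its library's total. CPM is not scaled by gene length.

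Genes whose mean over the 8 libraries reached 3 CPM and that passed filterByExpr were tested by edgeR 4.0.16 after TMM scaling (R 4.3.3; glmQLFit and glmQLFTest) between the 2 groups, with Benjamini-Hochberg adjustment. The comparison with EVFx was made the same way. A DEG had a log2 fold change beyond 1 in either direction and an adjusted p under 0.05. SE was obtained by dividing the log2 fold change by the root of F. Total counts per library, 3945372 to 6473209 in the main comparison, limit low genes: 3 counts were taken as a floor, and ratios against 1 to 3 counts are given with exact 95% intervals that cover counting error only.

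Gene lists, markers and members were chosen with earlier results of these data known. Genes named were list anchors, the 3 DEGs of each list and the 10 of all genes with the largest rise or fall (mean of at least 10 CPM, no overlap between groups), Rab14, Arpc2 and Cltc, and cell type markers. Gbp11, Cxcl11, Olr1 and Serpinb2 were named as list members with 1 to 3 counts over the PBS libraries, after their values were seen. Promoter windows came from RefSeq on GRCm38.p6, a build other than that of the alignment, and were matched by symbol. GC content and length were found for 10482 of the tested genes. Alternatives covered DESeq2 1.42.0, scaling, filters, all 20 libraries, a replicate block, leaving out each library in turn and, added after seeing the data, removal of length and GC trends by splines of 4 degrees of freedom. The tests were tried on simulated data. Tables were made in python 3.11.15 with pandas 2.3.3 and scipy 1.17.1. Comparisons with RNY1-/- fractions were not made here, and some genes that the rule names are not reported here.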

Additional observations from a re-analysis of the deposited data

Results flagged for a closer look

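Among the genes named, 1 library lay far from the other 3 of its group in 38 of 446 groups of 4 (Dixon's test at the 95% level), where chance flags about 1 in 20 groups. In 11 of the 38 the other 3 libraries had no count, so that any count meets the criterion and this rate does not hold. ProteinFx replicate 4 accounted for 12 of them. It was the highest of its group for Il1b (87.1 CPM against 18.4 to 28.9), Il1a (285 CPM against 76.9 to 106), Tnf (32.6 CPM against 18 to 20.1), Cxcl2 (111 CPM against 50.7 to 60.6), Acod1 (867 CPM against 495 to 556), Il10 (4.34 CPM against 2.51 to 2.79), Inhba (43.2 CPM against 14.1 to 16.2), Serpinb2 (13.9 CPM against 3.06 to 4.02), F10 (77.4 CPM against 47.1 to 48.8) and Adgre1 (3329 CPM against 2833 to 2862). All of these genes but Il10, which was not tested, were also higher DEGs over PBS.

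PBS replicate 3 accounted for 8. It was the lowest of the PBS libraries for Cd300a (98.5 CPM against 170 to 182), Irf1 (24.7 CPM against 38.1 to 40.6), Nlrp3 (12.1 CPM against 16.5 to 16.8) and Pdgfb (18.1 CPM against 26.0 to 27.5). It was the highest for Mki67 (25.4 CPM against 9.8 to 11.4), Mrc1 (968 CPM against 592 to 649), Il12b (0.457 CPM) and Cx3cr1 (0.229 CPM), with no count of the last 2 in the other PBS libraries.

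In the other PBS libraries, Cxcl10 (2.66 CPM) and Lss (6.56 CPM) were lowest in replicate 1, and Socs1 (1.85 CPM), Stat2 (65.7 CPM) and Cxcl11 (0.154 CPM) highest in replicate 2. With ProteinFx, Rela was lowest (7.1 CPM against 12.5 to 12.8) and Gpr34 (1.01 CPM) and Kdr (17.5 CPM) highest in replicate 2. Replicate 3 was lowest for H2-Q7 (27.8 CPM) and Ifih1 (320 CPM) and highest for Ccnd2 (45.2 CPM) and Il12b (1.01 CPM). Markers of other cells with a single count in the ProteinFx group were Ear1, Elane, Prg2 and Cd3e (0.251 CPM), Ear6 (0.253 CPM), Ly6g (0.191 CPM), and Mpo and Cd3g (0.174 CPM).

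The level with ProteinFx differed from that with EVFx in 701 higher and 712 lower DEGs by edgeR's test of the difference.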

How the results depend on the processing

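Against PBS, DESeq2, scaling by reference genes, filterByExpr alone, a fit over all 20 libraries and the replicate block kept the counts of higher and lower DEGs within 1.5 times of 971 and 1342, and no named DEG changed direction under any alternative. Without a filter there were 3498 DEGs, 2067 of them lower, and by adjusted p alone 5978, of which 2805 were higher and 3173 lower. Removal of length and GC trends, added after seeing the data, left 882 lower DEGs. This kept the call of 1425 of the 2313 DEGs (61.6%) and ended 12 named calls, and the cause was not tested. Leaving out 1 library at a time gave 913 to 1201 higher and 1125 to 1653 lower DEGs. Against EVFx, no filter gave 2563 DEGs (1346 higher and 1217 lower), and adjusted p alone gave 6608 (3247 higher and 3361 lower). Scaling by Rab14, Arpc2 and Cltc gave 566 higher and 927 lower, a share of higher genes of 37.9% in place of 49.6%. Leaving out 1 library gave 607 to 760 higher and 567 to 802 lower. Removal of length and GC trends kept the call of 828 of the 1413 DEGs against EVFx (58.6%).

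With 1 library left out, 4 against 3, an exact test cannot go below p = 0.0571. The mitochondrial share then differed by -1.65 to -1.07 percentage points and the ribosomal protein share by -3.62 to -3.01. A longer ISRE motif with a further GAAA repeat was found in 0.126% of all windows, 1.19% of higher and 0.108% of lower genes, and an NF-kB motif ending in TCC in 19%, 26.6% and 23%.

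With the replicate number as a block, 2274 DEGs were called, 995 higher and 1279 lower. The labels give the numbers no meaning across groups, and the deviations of same-numbered libraries correlated at 0.08, -0.16, -0.38 and 0.12, so the numbers were not taken as a pairing.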

Other observations

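The genes in this part lie outside the gene lists and were chosen after their values were seen. AW112010, annotated as a long noncoding RNA, was at 53.6 ± 6.98 CPM after PBS and 4071 ± 730 CPM after ProteinFx (mean ± SD, n = 4), a log2 fold change of 6.42 ± 0.19 (± SE, edgeR). Saa3, an acute phase protein, rose by 4.78 ± 0.37 to 3517 ± 1085 CPM, and Cp, ceruloplasmin, which oxidises iron for export, rose by 4.87 ± 0.18 while the exporter Slc40a1 fell. The surface enzyme Cd38, which consumes NAD, rose by 5.30 ± 0.24, Fgl2, a secreted fibrinogen-like protein, by 5.29 ± 0.14 and Tgfbi, a matrix protein, by 4.23 ± 0.24. Asns, asparagine synthetase, rose by 3.51 ± 0.18, Mthfd2, of mitochondrial folate metabolism, by 3.43 ± 0.12 and Dck, deoxycytidine kinase, by 3.34 ± 0.17. Inhba, a subunit of activin A, rose from 2.02 ± 0.619 CPM to 22.3 ± 14 CPM, a log2 fold change of 3.64 ± 0.44.

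The S100 family member S100a4 was at 365 ± 32.7 CPM with PBS and 58.2 ± 19.3 CPM with ProteinFx, a log2 fold change of -2.49 ± 0.19. Cd28, better known as the costimulatory receptor of T cells, was at 343 ± 44.9 CPM and 38.8 ± 11.2 CPM, a log2 fold change of -2.98 ± 0.20, although the T cell markers Cd3d, Cd3e and Cd3g had 3 counts or fewer in each of the 8 libraries. Igfbp4, which binds insulin-like growth factors, had a log2 fold change of -3.22 ± 0.30, the creatine kinase Ckb one of -2.90 ± 0.27, the neonatal Fc receptor Fcgrt one of -2.66 ± 0.38 and the centromeric histone Cenpa one of -3.07 ± 0.13. Ifi27 was lower with ProteinFx, at 82.6 ± 16.4 CPM with PBS and 12.4 ± 0.875 CPM with ProteinFx, a log2 fold change of -2.58 ± 0.16, opposite to the interferon effectors on the list.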
